A study of Arabidopsis thaliana with 12 samples.

Results

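The drought and abscisic acid (ABA) responsive target genes are 10 Arabidopsis genes taken by their locus identifiers, of 33687 transcripts in the deposited tables. They are RD22 (AT5G25610), RD29A (AT5G52310), RD29B (AT5G52300), RAB18 (AT5G66400), COR15A (AT2G42540), KIN2 (AT5G15970), P5CS1 (AT2G39800), HB6 (AT2G22430), HB7 (AT2G46680) and HB12 (AT3G61890). All 10 were listed in every table, and all 10 had an average mean of at least 10 normalized counts in each comparison. Poly(A) RNA of whole Arabidopsis thaliana seedlings, pooled at 10 days after growth on vertical half-strength MS plates without treatment, was sequenced from 3 biological replicates per line. Atdoa10a/b RNAi 4-2 is a single transgenic line, made by putting an RNAi construct against AtDOA10B into an Atdoa10a T-DNA mutant, and was made to lack or deplete 2 related E3 ubiquitin ligases. The line amiNAA10 expresses an artificial microRNA against NAA10, the catalytic subunit of the N-terminal acetyltransferase NATA. The group labelled Atnaa20 carries the label of a mutant of NAA20, the catalytic subunit of NATB. Its NAA20 count was above that of Col-0, and the cause was not tested. Col-0 is the wild-type accession, and all mutant lines are in this background.

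ABA is the hormone that accumulates when plant cells lose water. It binds receptors of the PYR/PYL/RCAR family, which then block the clade A protein phosphatases, so that SnRK2 kinases can activate bZIP factors of the AREB/ABF family. These factors bind ABA-responsive elements (ABRE) in the promoters of protective genes, while DREB/CBF factors bind dehydration-responsive elements (DRE) in an ABA-independent branch. The members lie near the end of these routes. RD29A, RD29B, RAB18, COR15A and KIN2 encode hydrophilic or LEA-like proteins, of which RAB18 is a dehydrin and COR15A a chloroplast stroma protein. P5CS1 encodes the stress-inducible enzyme that commits glutamate to proline synthesis. RD22 encodes a BURP-domain protein, and HB6, HB7 and HB12 encode homeodomain-leucine zipper (HD-ZIP) class I transcription factors.

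The upstream sequences of 5 members are shown. Those of RD29A, RD29B, RAB18 and COR15A carry matches to the elements of these routes, and that of P5CS1 carries none. RefSeq (assembly TAIR10.1) placed RD29A at chr5:21240717-21243644 and RD29B at chr5:21237021-21239531, both on the plus strand with 1185 bases between them. RAB18 is at chr5:26518277-26519447, COR15A at chr2:17710441-17712330 and P5CS1 at chr2:16598072-16603319, all on the minus strand. Each line holds the 250 bases before the annotated gene start, 5′ to 3′ on the strand of the gene, with matches in capitals to the ABRE core ACGTG, the DRE core CCGAC and the HD-ZIP class I site CAATNATTG, each searched on both strands.
RD29A: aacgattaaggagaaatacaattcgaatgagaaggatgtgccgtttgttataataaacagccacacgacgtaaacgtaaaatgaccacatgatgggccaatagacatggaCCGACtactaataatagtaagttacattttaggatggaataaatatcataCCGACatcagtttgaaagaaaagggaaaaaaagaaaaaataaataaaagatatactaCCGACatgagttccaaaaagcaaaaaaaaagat
RD29B: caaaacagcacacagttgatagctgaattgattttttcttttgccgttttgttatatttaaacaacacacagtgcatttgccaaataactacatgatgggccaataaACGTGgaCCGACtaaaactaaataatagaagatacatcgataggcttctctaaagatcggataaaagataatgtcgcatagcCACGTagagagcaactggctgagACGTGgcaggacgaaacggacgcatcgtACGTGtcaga
RAB18: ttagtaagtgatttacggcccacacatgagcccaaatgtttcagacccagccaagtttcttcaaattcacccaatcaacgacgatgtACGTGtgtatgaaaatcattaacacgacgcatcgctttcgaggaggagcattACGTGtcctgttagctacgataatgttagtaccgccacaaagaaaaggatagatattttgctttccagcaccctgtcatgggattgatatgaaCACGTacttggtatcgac
COR15A: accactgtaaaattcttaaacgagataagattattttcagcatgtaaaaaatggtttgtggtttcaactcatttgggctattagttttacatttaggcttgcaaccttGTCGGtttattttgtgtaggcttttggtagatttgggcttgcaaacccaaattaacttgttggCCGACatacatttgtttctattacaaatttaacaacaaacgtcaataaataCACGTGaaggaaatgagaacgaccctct
P5CS1: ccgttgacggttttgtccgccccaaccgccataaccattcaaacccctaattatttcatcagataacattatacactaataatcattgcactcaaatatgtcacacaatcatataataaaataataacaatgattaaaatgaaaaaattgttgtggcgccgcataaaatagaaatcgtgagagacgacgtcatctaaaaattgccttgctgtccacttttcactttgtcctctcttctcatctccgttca

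Within its window, RD29A had 3 matches to the DRE core and none to the ABRE core, whereas RD29B had 4 matches to the ABRE core and 1 to the DRE core. RAB18 had 3 ABRE matches. COR15A had 2 DRE matches and 2 ABRE matches that overlap in a single CACGTG. Of all 10 members, 5 held at least 1 ABRE core and 3 at least 1 DRE core in this window, against 22.9% and 12% of 27443 nuclear protein-coding genes. No member held the HD-ZIP site, which was present in 0.918% of these genes. The windows of P5CS1, HB6, HB7 and HB12 had none of the 3 motifs. A match is a match of letters only, and the windows stop at the annotated start. Elements past that start or further upstream were not looked for, so a window without a match does not show that a gene lacks the element.

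The values are normalized read counts, that is, reads per gene divided by the size factor of their library. The authors deposited the mean of each line, and sums of these means were 20600160 in Atdoa10a/b RNAi 4-2, 21625944 in amiNAA10, 21639733 in the group labelled Atnaa20 and 20338996 in Col-0. For most genes the digits of a mean allowed only 1 set of 3 whole read numbers, so that values per library could be recovered for every member in the RNAi line and in Col-0. The means of amiNAA10 and the group labelled Atnaa20 were printed with fewer digits. Values per library there, for 5 and 6 members, are less secure. A deposited mean carries no error of its own. The libraries, which cannot be tied to the replicate numbers of the labels, are called A, B and C in order of their size factor. The tables of amiNAA10 and of the group labelled Atnaa20 were normalized separately from the Col-0 used here, so ratios for these lines were centred on the median of all genes, which had been 0.21 and 0.10 on the log2 scale, and were not tested. The same Col-0 mean is the reference for all 3 lines.

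AtDOA10A, the gene disrupted by T-DNA, had 790, 790 and 943 normalized counts in the Atdoa10a/b RNAi 4-2 libraries, against 2273, 2157 and 2385 in Col-0 (limma log2 fold change -1.44 ± 0.079 SE, adjusted p = 1.18e-05). AtDOA10B, the RNAi target, had 525, 512 and 496 normalized counts in the RNAi line, against 269.5, 277.5 and 299 in Col-0 (0.86 ± 0.078 SE, adjusted p = 0.000595), so its total gene count was higher, not lower; whether reads of the construct are among them was not tested. NAA10 had a mean of 123 normalized counts in amiNAA10, against 885 in Col-0. NAA20 had a mean of 680 in the group labelled Atnaa20, against 263 in Col-0, so its total gene count was higher, not lower. A gene count does not show whether the transcript is functional, and the cause of the higher count was not tested. Directions given for this group rest on the label. The root markers SCR, SHR, COBL9 and EXPA7 and the shoot markers RBCS1A, CAB1, LHCB2.1 and RBCS3B were present in every line. None of these 8 was 1.5-fold from Col-0 in the RNAi line, 2 shoot markers were lower by this measure in amiNAA10, and 1 shoot and 2 root markers were lower in the group labelled Atnaa20. In whole seedlings, fewer cells of a type and less RNA per cell cannot be told apart.

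In Atdoa10a/b RNAi 4-2, 4 members fell and none rose: P5CS1, COR15A, RD22 and HB6. The test, added after the data had been seen, was limma on recovered reads, adjusted by the Benjamini-Hochberg method over 19854 genes, of which it called 1.13% lower and 1.11% higher. The median log2 ratio of means was -0.53 over the 10 members and 0.00 over 20086 genes. By the ratio of means, 4 members were at least 1.5-fold lower (P5CS1, COR15A, RD29B and RAB18) and none was as much higher, where 2.16% of all genes were lower and 1.38% higher. This count was 2 without RNAi library C, 2 without Col-0 library B and 6 without Col-0 library C. In 6 members every Atdoa10a/b RNAi 4-2 library was below every Col-0 library, a pattern that 10.7% of all tested genes showed, and in no member was every RNAi library above, as in 11.2% of genes.

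**Figure D1:**
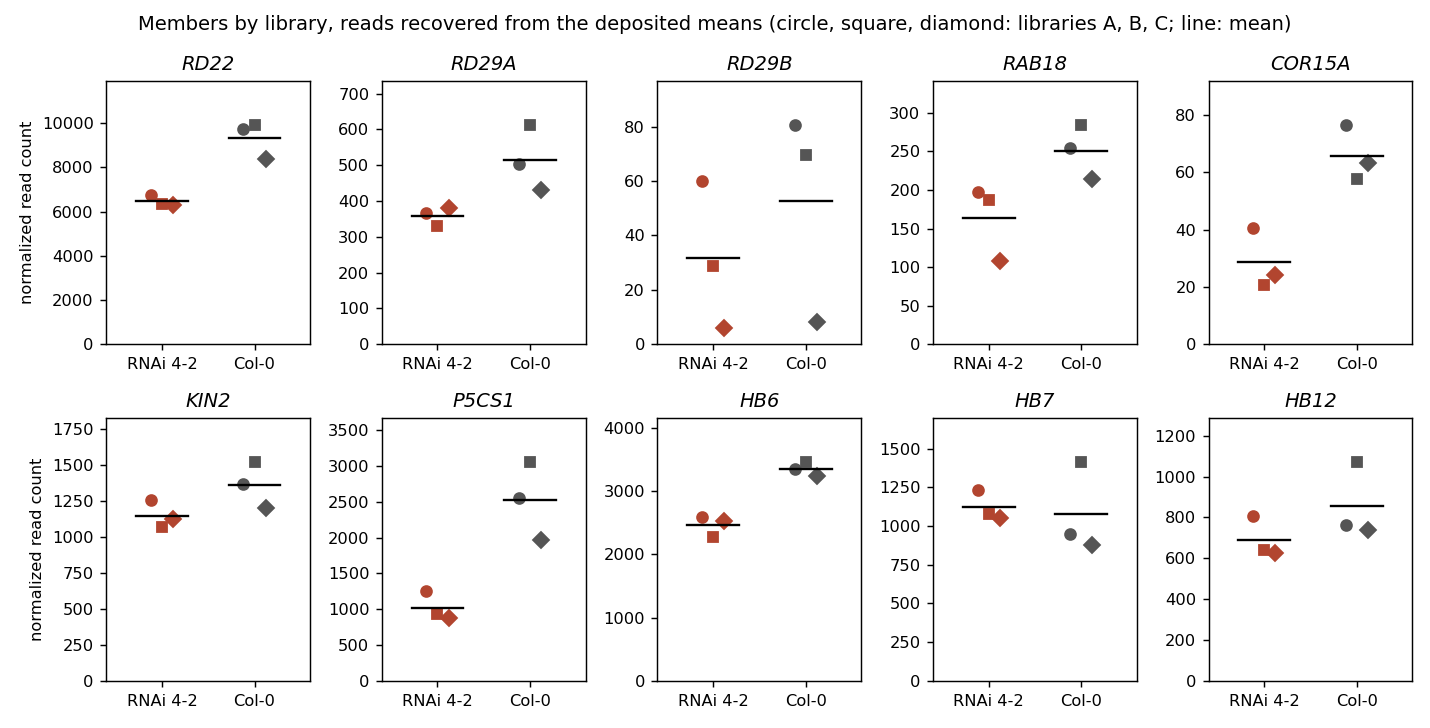
Normalized read count of each of the 10 members in the 3 Atdoa10a/b RNAi 4-2 libraries and the 3 Col-0 libraries, recovered from the deposited means, with a line at the mean. The groups stand apart in RD22, RD29A, RAB18, COR15A, P5CS1 and HB6 and overlap in RD29B, KIN2, HB7 and HB12.

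P5CS1, the proline synthesis enzyme, had 1248, 935 and 881 normalized counts in Atdoa10a/b RNAi 4-2, against 2555, 3060 and 1973 in Col-0. Even the highest RNAi library was below the lowest Col-0 library. Its limma log2 fold change was -1.30 ± 0.16 (SE, adjusted p = 0.00279), and its ratio of means, 2.47-fold lower, ranked 28th from the lowest of 20086 genes. The adjusted p lay between 0.000347 and 0.0915 over 12 settings and was under 0.05 in 11 of them. Its paralog P5CS2, which serves housekeeping proline synthesis and shares 86.6% of aligned coding bases, had 5085 normalized counts in the RNAi line and 5289 in Col-0 (adjusted p = 0.72). None of the 5 further genes of proline metabolism, including P5CS2, passed the test in either direction.

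COR15A, the chloroplast stroma protein, had 40.5, 20.8 and 24.3 normalized counts in Atdoa10a/b RNAi 4-2, against 76.6, 57.5 and 63.4 in Col-0. All RNAi libraries were below all Col-0 libraries, at a depth of 21 to 37 reads per RNAi library. Its limma log2 fold change was -1.22 ± 0.26 (SE, adjusted p = 0.0357). This call was lost without RNAi library B (adjusted p = 0.181), without RNAi library C (0.121), without Col-0 library A (0.09) and without Col-0 library C (0.117). COR15B, which starts 7 bases beyond the other end of COR15A and shares 85.1% of aligned coding bases, was too low to be tested (7.26 normalized counts in the RNAi line and 10.9 in Col-0). How reads were divided between the neighbours is uncertain.

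RD22, a gene induced by dehydration, had 6748, 6332 and 6316 normalized counts in Atdoa10a/b RNAi 4-2, against 9740, 9917 and 8376 in Col-0, with no overlap (limma log2 fold change -0.53 ± 0.074 SE, adjusted p = 0.00552). HB6, a negative regulator of ABA responses, had 2597, 2277 and 2528 normalized counts in the RNAi line, against 3357, 3467 and 3241 in Col-0, again with no overlap (-0.44 ± 0.065 SE, adjusted p = 0.00688). These are modest differences in genes with a small spread between libraries. Without RNAi library B neither passed the test (adjusted p = 0.0626 for RD22 and 0.0619 for HB6). A fit whose variance prior did not follow the mean called none of the 10 members (adjusted p from 0.0915 for P5CS1 and 0.108 for RD22 to 0.112 for HB6 and 0.138 for COR15A) and 47 genes in all, against 445.

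RD29A and RAB18 were separated between the groups but did not pass the test. RD29A had 368, 330 and 379 normalized counts in Atdoa10a/b RNAi 4-2, against 502, 612.5 and 432 in Col-0 (limma log2 fold change -0.51 ± 0.12 SE, adjusted p = 0.0544). Without Col-0 library C it passed (adjusted p = 0.0406), as it did with reads scaled to the library total (0.0468). The dehydrin RAB18 had 197, 187 and 108 normalized counts in the RNAi line, against 254, 284.5 and 214 in Col-0 (-0.65 ± 0.20 SE, adjusted p = 0.137).

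RD29B was the most variable member. It had 60.2, 28.7 and 5.84 normalized counts in Atdoa10a/b RNAi 4-2, against 80.6, 69.6 and 8.15 in Col-0, so that the highest library exceeded the lowest by 10.3-fold in the RNAi line and 9.89-fold in Col-0. The groups overlapped throughout (limma log2 fold change -0.70 ± 0.86 SE, adjusted p = 0.747). Without RNAi library C the limma log2 fold change was 0.19. Its neighbour RD29A spanned only 1.15-fold in the RNAi line and 1.42-fold in Col-0.

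The remaining members overlapped between the groups. KIN2 had 1252, 1067 and 1122 normalized counts in Atdoa10a/b RNAi 4-2, against 1365, 1521 and 1199 in Col-0 (limma log2 fold change -0.24 ± 0.091 SE, adjusted p = 0.21). Its tandem paralog KIN1, 892 bases away and identical to it in 95% of coding bases, had 267, 217 and 265.5 in the RNAi line, against 427, 371 and 304 in Col-0 (-0.55 ± 0.13 SE, adjusted p = 0.0602), and a split of reads between such copies is uncertain. HB12 had 806, 643 and 623.5 normalized counts in the RNAi line, against 762, 1073 and 736 in Col-0 (-0.30 ± 0.14 SE, adjusted p = 0.317). HB7 was the only member with a higher mean in the RNAi line, with 1233, 1078 and 1051 normalized counts against 947, 1416 and 876 in Col-0 (0.08 ± 0.15 SE, adjusted p = 0.835), and without Col-0 library C its log2 fold change was -0.05. HB7 and HB12 share 83% of aligned coding bases, and both genes are known to be induced by ABA.

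Libraries of a line tended to be high or low in several members together. Library A was the highest of the Atdoa10a/b RNAi 4-2 libraries in 9 members and library C the lowest in 6. In Col-0, library B was the highest in 8 members and library C the lowest in 9. How often each library was highest or lowest over all genes was not counted, so this order cannot be called particular to the members. The part of this spread between libraries in the differences between lines was not tested.

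**Figure D2:**
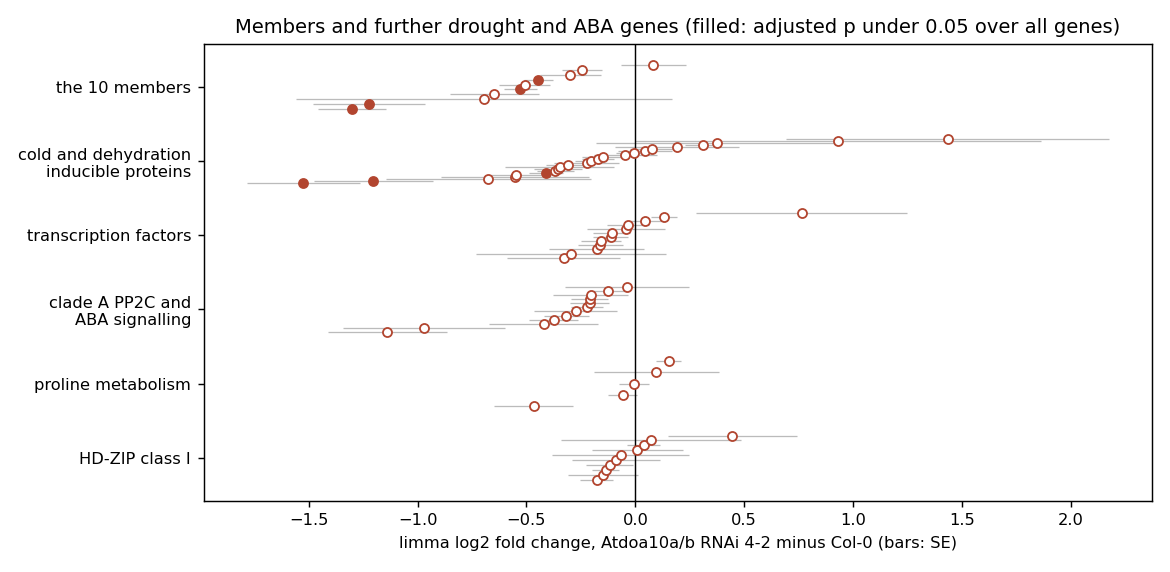
limma log2 fold change of Atdoa10a/b RNAi 4-2 minus Col-0 for the members and for further drought and ABA genes in 5 lists, with bars for the SE and filled points for genes with an adjusted p under 0.05. Filled points lie left of 0 only, 4 among the members and 3 among the cold and dehydration inducible proteins.

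Further genes of the drought and ABA response were read from 5 lists. Of 23 tested cold and dehydration inducible proteins, 3 fell and none rose: RD20, GOLS2 and ERD10. RD20, a caleosin of lipid bodies, had 91.9, 63.4 and 47.7 normalized counts in Atdoa10a/b RNAi 4-2, against 164, 274.5 and 151 in Col-0 (limma log2 fold change -1.52 ± 0.26 SE, adjusted p = 0.0145). GOLS2, a galactinol synthase of raffinose synthesis, had 50.3, 49.5 and 40.9, against 103, 175 and 71.5 in Col-0 (-1.20 ± 0.27 SE, adjusted p = 0.0482). ERD10, a dehydrin, had means of 1580 in the RNAi line and 2108 in Col-0 (-0.41 ± 0.079 SE, adjusted p = 0.0247). Without RNAi library B none of the 3 passed (adjusted p = 0.095 for RD20, 0.186 for GOLS2 and 0.163 for ERD10), nor without RNAi library C (0.0523, 0.159 and 0.0654 in the same order). Over 12 settings RD20 passed in 9, ERD10 in 8 and GOLS2 in 4. GOLS2 also failed without RNAi library A (0.0787), Col-0 library A (0.0777) or Col-0 library B (0.0531), and ERD10 without RNAi library A (0.0554). NCED3, which makes the rate-limiting cleavage in ABA synthesis, had 70.0, 35.7 and 45.7, against 120, 139 and 75.2 in Col-0, and did not pass (-1.14 ± 0.27 SE, adjusted p = 0.0623). None of 12 clade A PP2C and ABA signalling genes, of 12 transcription factors or of 10 other HD-ZIP class I genes passed. All 12 PP2C and signalling genes had a ratio of means below 0, with a median log2 ratio of -0.27. The lists were composed with results of these data known, so these counts describe them and do not test them.

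**Figure D3:**
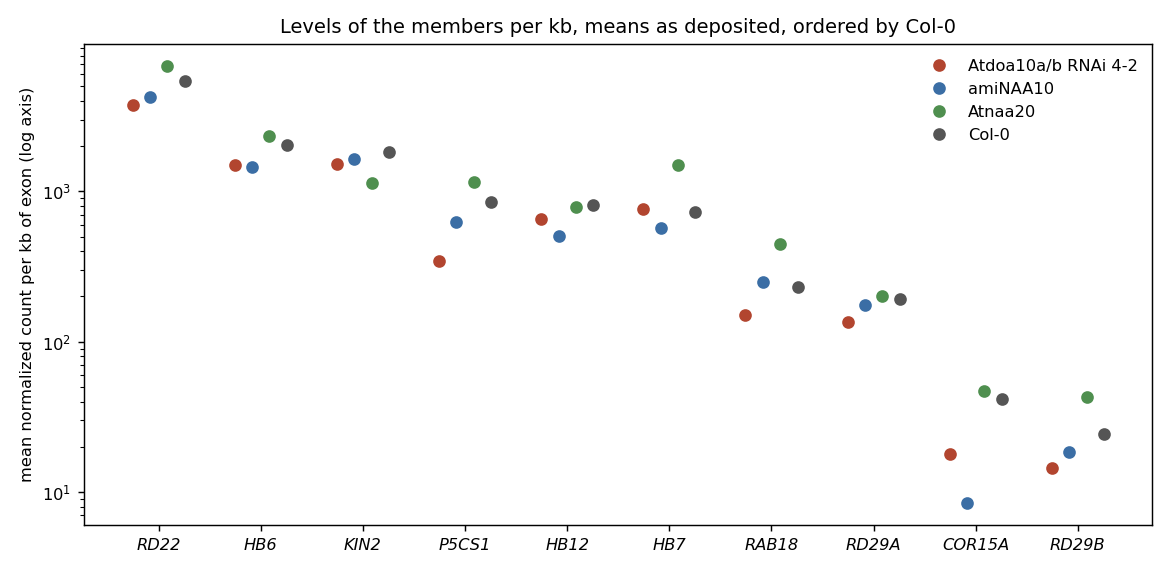
Mean normalized count per kb of exon for each member in the 3 mutant lines and Col-0, on a log axis, with members in the order of their Col-0 level. RD22 is highest and RD29B and COR15A are lowest.

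Per kb of annotated exon, RD22 had the highest level of the members, 3744 normalized counts per kb in Atdoa10a/b RNAi 4-2 and 5411 in Col-0. In Col-0 it was followed by HB6 and KIN2 (2032 and 1815 per kb), whose library ranges overlapped. P5CS1, HB12 and HB7 came next at 851, 813 and 732 per kb in Col-0, with overlapping ranges. RAB18 and RD29A formed a lower pair (230 and 194 per kb), also overlapping, and COR15A and RD29B were lowest (41.6 and 24.3 per kb). In the RNAi line P5CS1 stood at 344 per kb, below HB7 and HB12 at 760 and 655.5 per kb.

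In amiNAA10 all 10 members had a centred log2 ratio below 0, although RAB18 was at 0.11 on the scale as deposited and 0.018 with means scaled to their column sum. The median was -0.58, against 0.00 for 20212 genes. At least 1.5-fold lower were COR15A, HB12, HB6, P5CS1 and RD29B, 5 of 10 members where 9.27% of all genes were as low, and none was as much higher, where 5.99% of genes were. On the scale as deposited, without centring, only COR15A and HB12 were 1.5-fold lower. P5CS1 no longer reached 1.5-fold without Col-0 library B (-0.50), nor RD29B without amiNAA10 library A or C or Col-0 library A or B (-0.25, -0.48, -0.16 and -0.35). COR15A stood out with a mean of 13.4 normalized counts in amiNAA10 and 65.8 in Col-0, 5.36-fold lower after centring and 30th from the lowest of 20212 genes. Its recovered values, 12.5, 9.38 and 13.0 on the centred scale in amiNAA10, were all below those of Col-0 (76.6, 57.5 and 63.4). COR15B was higher in amiNAA10, with a mean of 42.7 normalized counts against 10.9 in Col-0. The counts of these neighbours thus went in opposite directions in this line, but how reads were divided between them is uncertain.

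**Figure D4:**
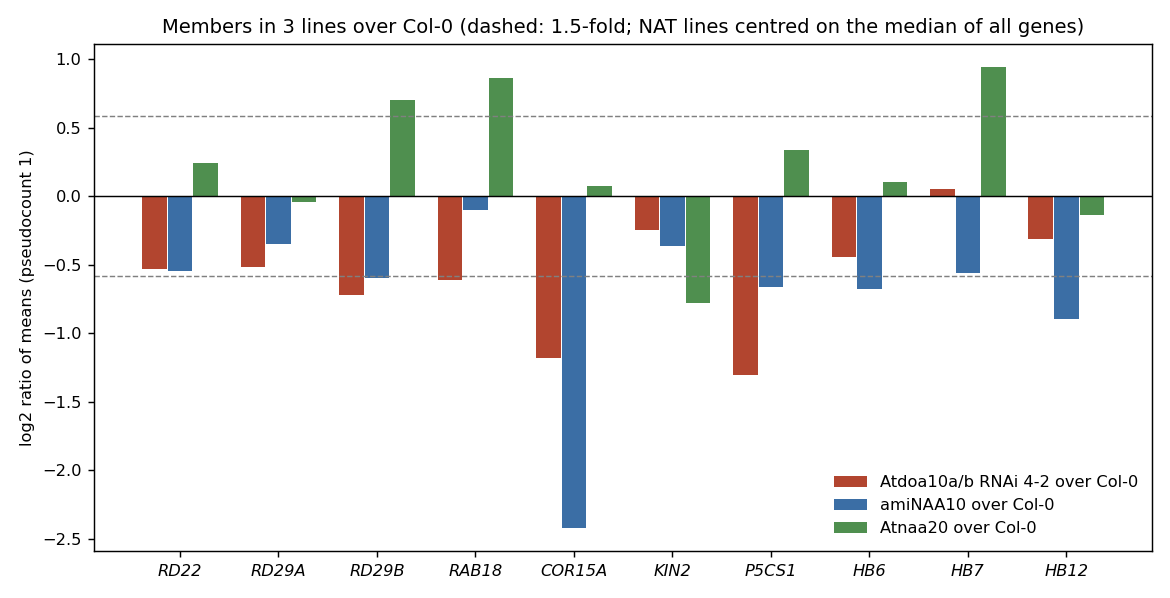
Log2 ratio of the mean normalized counts of each member in the RNAi line, the amiNAA10 line and the group labelled Atnaa20, each over the same Col-0 mean, with dashed lines at 1.5-fold. Bars of the RNAi line and amiNAA10 point down in 9 and 10 members (RAB18 in amiNAA10 only after centring), and those of the group labelled Atnaa20 point up in 7.

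The HD-ZIP factors HB12 and HB6 had means of 530 and 2416 normalized counts in amiNAA10, against 857 and 3355 in Col-0, or 1.87- and 1.60-fold lower after centring. P5CS1 had a mean of 1847 in amiNAA10, against 2529 in Col-0 (1.58-fold lower). HB7 was 1.47-fold lower, and its recovered libraries, 642, 772 and 785 on the centred scale, lay below all Col-0 libraries (947, 1416 and 876), although they overlapped on the scale as deposited. These reads of HB7 are not secure, since the next best set missed the mean by only 6.65e-08, against 1.16e-08 for the set used. The next best set was also close for RD29A in amiNAA10 (1.44e-07 against 2.51e-08). It was likewise close for KIN2 in the group labelled Atnaa20 (1.08e-07 against 1.59e-08). RD29B, at 15.8, 59.4 and 29.0 in amiNAA10, overlapped with Col-0 (80.6, 69.6 and 8.15). RAB18 and RD29A also overlapped, with centred log2 ratios of -0.10 and -0.35. RD22 and KIN2 had ratios of -0.55 and -0.36. Reads of RD22, KIN2, P5CS1, HB6 and HB12 were not recovered in this line, so their ratios rest on its mean alone. Among the listed genes, GOLS2, RD20 and KIN1 were also over 2-fold lower after centring, with means of 50.65, 99.7 and 193 normalized counts in amiNAA10, against 116, 197 and 367 in Col-0. None held 2-fold with every library left out. The log2 ratio was -0.98 for GOLS2 and -0.86 for RD20 without Col-0 library B, and -0.95 for KIN1 without amiNAA10 library A. The transcription factor genes went both ways, with a median centred log2 ratio of 0.03 over 11 of them. ABF1 and DREB2A were over 2-fold higher, with means of 113 and 199 in amiNAA10, against 43.5 and 83.2 in Col-0. MYC2 and ABF3 were at least 1.5-fold lower, with means of 569 and 2614 in amiNAA10, against 794 and 3541 in Col-0. DREB2A no longer reached 2-fold without amiNAA10 library A or C or Col-0 library C (0.99, 0.93 and 0.97). ABF3 no longer reached 1.5-fold without Col-0 library B (-0.53).

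In the group labelled Atnaa20, members lay on both sides of Col-0. The median log2 ratio was 0.17, against 0.00 for 20168 genes, with 7 members above 0 and 3 below. RD29A, COR15A and HB12 lay near 0, and each changed sign with 1 library left out. HB7, RAB18 and RD29B were at least 1.5-fold higher, where 5.31% of all genes were, and KIN2 was at least 1.5-fold lower, where 7.97% of genes were. HB7 had a mean of 2222 normalized counts in the group labelled Atnaa20, against 1080 in Col-0, 1.92-fold higher after centring. Reads of HB7, RD22, P5CS1 and HB6 were not recovered in this group, so their ratios rest on its mean alone. RAB18 had 569, 307 and 493 on the centred scale, all above Col-0 (254, 284.5 and 214). RD29B had 166, 30.0 and 63.2, which overlapped with Col-0 (80.6, 69.6 and 8.15) and spanned 5.55-fold. Its log2 ratio of 0.70 rested on library A, without which it was -0.18, and was 0.20 without Col-0 library C. In each of the 6 members with recovered reads, library A of this group was the highest and library B the lowest. This order was not counted over all genes.

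**Figure D5:**
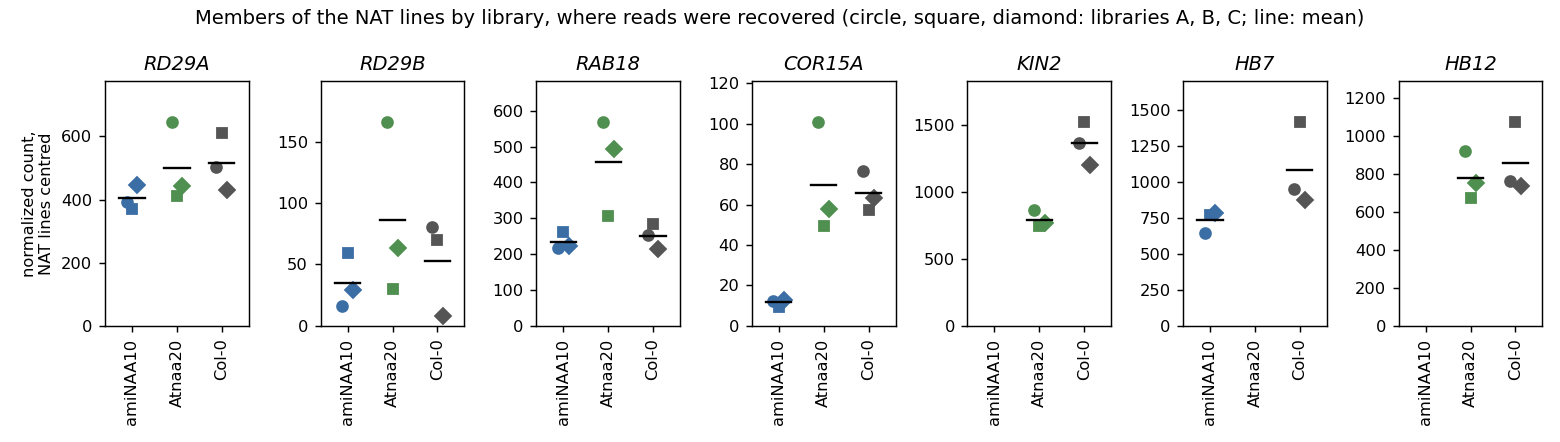
Recovered normalized counts of members in the libraries of amiNAA10, of the group labelled Atnaa20 and of Col-0, with both mutant lines put on the centred scale and a line at the mean. In amiNAA10, COR15A and HB7 lie below every Col-0 library, HB7 only after centring. In the group labelled Atnaa20, KIN2 lies below every Col-0 library and RAB18 above.

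KIN2 had 865, 746 and 767 on the centred scale in the group labelled Atnaa20, all below Col-0 (1365, 1521 and 1199), and its paralog KIN1 had a mean of 84.0 normalized counts, against 367 in Col-0 (4.64-fold lower after centring). P5CS1 had a mean of 3424 in this group, against 2529 in Col-0 (1.26-fold higher after centring). RD22 had a mean of 11809, against 9344 in Col-0 (centred log2 ratio 0.24). HB6, COR15A, RD29A and HB12 had centred log2 ratios of 0.11, 0.08, -0.04 and -0.14. PRODH2, a proline dehydrogenase, had a mean of 43.7, against 104 in Col-0, and GOLS1, a galactinol synthase, had 368, against 1190 in Col-0, both over 2-fold lower after centring with any 1 library left out. LEA7, a LEA protein gene, had 156, 0 and 24.5 normalized counts in this group as deposited, against 16.3, 29.3 and 0.906 in Col-0, so that the groups overlapped. Without library A its centred log2 ratio was -0.42, against 1.79 with all libraries.

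No member was 1.5-fold from Col-0 in the same direction in all 3 lines. COR15A, P5CS1 and RD29B were at least 1.5-fold lower in both the RNAi line and amiNAA10, of which only COR15A remained so without centring. RD29B overlapped with Col-0 in both lines, and in the RNAi line its log2 ratio was -0.24 without RNAi library C, -0.29 without Col-0 library A and -0.48 without Col-0 library B. Their log2 ratios in the group labelled Atnaa20 were 0.08, 0.34 and 0.70, the last of these -0.18 without library A. The 3 lines share their Col-0 libraries, so these values are not independent of each other. The difference between lines was not tested.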

How the data were processed

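Poly(A) RNA-seq of 3 libraries each of Atdoa10a/b RNAi 4-2, amiNAA10, Atnaa20 and Col-0 was analysed from the 3 deposited tables. The submitters' processing notes list DESeq 1.18.0, HTSeq 0.6.1, TopHat2 2.0.12 and Bowtie2 2.2.3, with TAIR10. The paper's methods instead name HISAT2, DESeq2 and edgeR; which was used is not settled. The deposited signal values are the authors' mean normalized counts per line, with no error. The tables also hold the authors' fold changes, p-values and calls, which were not used. The 2 Col-0 columns of the NAT tables, which belong to another series by the paper's data statement, were not used, so all lines were set over 1 Col-0 mean.

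Log2 ratios of means had a pseudocount of 1. NAT ratios were centred on the median over genes with an average mean of at least 10. No test had been planned, since each line has only a mean. After the data had been seen, whole reads per library were recovered from the digits of the means. Each mean is a sum of 3 read numbers, each times a step of 1 library, and the steps were read from the commonest low values. A gene was accepted only where exactly 1 set of reads matched the mean within its rounding. This held for 99.9% of 23982 means tried in the RNAi line, 100% of 24078 in Col-0, 92.9% of 19679 in amiNAA10 and 97.7% of 19725 in Atnaa20. Several sets matched for 1392 means in amiNAA10 and 415 in Atnaa20, where fewer digits were printed, so accepted sets there are less secure. Means above 10000 (1000 in the NAT lines) were not tried. The rounding tolerance was revised once, after the number of decimals had been misread, before any test was run. limma 3.58.1 (R 4.3.3, trend) was fitted to log2(normalized reads + 1) for 19854 genes with a mean of at least 10, with Benjamini-Hochberg adjustment at 0.05. How often limma misses a change in genes like the members was not tested. A missed call is thus no sign of no change.

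Members and lists were chosen with earlier results of these data known. All members were named; of each list, up to 3 genes per line at least 2-fold from Col-0 with a mean of at least 50. Paralogs KIN1, COR15B, P5CS2, HB5 and HB16 were named by rule, and ERD10 after its values were seen. HB5 and HB16 did not pass the test (adjusted p = 0.305 and 0.274). Alternatives were other scales, pseudocounts, filters and folds, and, chosen after the data were seen, 11 limma settings and ratios with 1 recovered library left out.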

Additional observations from a re-analysis of the deposited data

How the results depend on the processing

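Of 160 values of single members under other scales, pseudocounts and filters, 154 moved the log2 ratio of means by less than the spread between Col-0 libraries, and none turned a 1.5-fold difference round. This spread was each gene's own and was wide for RD29B, at 9.89-fold between Col-0 libraries. Pseudocounts can hardly move members with high counts. The count of 154 is therefore a weak check. At the lower fold threshold tried, 7 members were lower in Atdoa10a/b RNAi 4-2 and 9 in amiNAA10. At 2-fold, 2 were lower in the RNAi line and 1 in amiNAA10, and 0 were lower and 0 higher in the group labelled Atnaa20. The share of all genes past either of these thresholds was not counted, so these counts cannot be called particular to the members. In amiNAA10, 2 members were 1.5-fold lower without centring and 2 with means scaled to their column sum. With no mean-variance trend, limma called 20 genes lower, 27 higher and 0 members (2956 genes at an unadjusted p under 0.05). Leaving out 1 library at a time gave 47 to 290 genes lower, 42 to 293 higher and 1 to 4 members lower by limma, and 2 to 6 members 1.5-fold lower by ratio of means. The lowest limma counts came without Atdoa10a/b RNAi 4-2 library B. The log2 fold change of RD29B ranged from -1.71 to 0.19 over these fits and that of HB7 from -0.051 to 0.29. In the group labelled Atnaa20, the log2 ratio of RD29B ranged from -0.18 to 1.13 with 1 library left out. The causes were not tested. In these fits the line with 2 libraries is assumed to vary like the other. No paired analysis was possible because the recovered libraries cannot be tied to the replicate numbers of the labels.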

Other observations

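Reads of seed storage protein genes were most numerous in library B of amiNAA10. CRA1, a cruciferin, had 1, 457 and 15 reads in amiNAA10 libraries A, B and C, 3, 3 and 6 in Atdoa10a/b RNAi 4-2 and 1, 2 and 0 in the group labelled Atnaa20, against 1, 1 and 0 in Col-0. Most of the mean of 142 normalized counts in amiNAA10 thus came from library B, and library C also held some. CRU3, also a cruciferin, had 0, 42 and 0 reads in amiNAA10, against 0, 0 and 2 in Col-0. OLEO1, an oleosin, had 0, 9 and 3 reads in amiNAA10 and 2, 0 and 0 in the RNAi line, against none in Col-0, and SESA1 had none in any library of the 4 groups. RD29B, which is also expressed in maturing seeds, had 19, 76 and 38 reads in the same amiNAA10 libraries, and COR15A had 15, 12 and 17. The part of seed transcripts in the values of RD29B was not tested.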
